A study of Homo sapiens with 2 samples.

Results

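Translation initiation factors were compared between MTAC-P and PC9, a pair of human lung cancer cell lines with 1 RNA-seq library each. MTAC-P is a derivative of PC9 that resists EGFR tyrosine kinase inhibitors, per the labels, and PC9 is a lung adenocarcinoma line whose growth depends on a mutant EGFR. Both were grown in DMEM with serum. The inhibitor used to select MTAC-P, any drug present at harvest and whether the line is 1 clone are not stated in the labels. The comparison asks how the resistant derivative differs from its parent in the mRNAs of the initiation machinery. The genes were taken by symbol: every protein-coding gene whose symbol starts with EIF and a digit from 1 to 6, without the eIF2 kinases and the Y-linked copy. This gave 54 symbols of 19089 coding symbols, on 152 listed transcripts. The family itself was selected on its log2 ratios, the measure of difference used throughout, in these same libraries, so counts over it are given as a description and nothing is read from them. With 1 library per line there is no replicate check and no test.

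Initiation factors bring the initiator tRNA, the small ribosomal subunit and the mRNA together at the start codon. eIF2 carries the initiator tRNA and is recharged with GTP by its exchange factor eIF2B. eIF3 is the large scaffold on the small subunit. eIF4E binds the mRNA cap, eIF4G bridges it to the ribosome, eIF4A unwinds the leader, and the 4E-BP proteins block eIF4E when mTOR is inactive. In EGFR-driven cells the receptor feeds this last step through mTOR and ERK signalling.

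Levels are FPKM, fragments per kilobase of transcript scaled to the mapped fragments of the library, summed over the listed transcripts of a symbol, so levels of different genes can be set side by side per length. The difference between lines is given as a log2 ratio, log2((MTAC-P + 1)/(PC9 + 1)). The added 1 makes the differences of low genes look smaller. Of the 54 symbols, 51 averaged 1 FPKM or more across the libraries and were compared. The others were EIF2S3L, listed at 0 in both lines, and the cap-binding paralogs EIF4E1B and EIF4E3, at 0.00766 and 0.191 FPKM in MTAC-P and at 0 and 0.0197 FPKM in PC9. The listed values summed to 685082 FPKM in MTAC-P and 693444 FPKM in PC9. No read counts come with them, so the depth is unknown. Epithelial markers were present in both lines, with 10 of 11 at a mean of 1 or more. The lung lineage factor NKX2-1 was at 0 in MTAC-P and at 0.0787 FPKM in PC9. Of 6 leukocyte, 6 fibroblast and 3 endothelial markers in the tables, 1 of each list (CD68, COL1A1 and CDH5) reached a mean of 1. The leukocyte list summed to 29.8 FPKM in MTAC-P and 24.1 FPKM in PC9, nearly all of it CD68, while PTPRC stood at 0.0460 FPKM in MTAC-P and at 0.0910 FPKM in PC9. Fibroblast markers summed to 2.94 FPKM in MTAC-P and 2.49 FPKM in PC9, and endothelial markers to 4.20 FPKM in MTAC-P and 3.42 FPKM in PC9. The part of these in the results was not tested.

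Most of the family, like most coding symbols compared, stood close together in the pair of lines. Of the 51 symbols compared, 42 differed by less than 1.5-fold, where 18.3% of 10569 coding symbols differed by at least that much. At 2-fold or more, 2 were higher in MTAC-P (EIF2A and EIF2B4) and 3 were lower (EIF4EBP1, EIF4EBP3 and EIF2D), where 6.37% of 10569 coding symbols compared were past 2-fold, 2.87% higher and 3.50% lower. At 1.5-fold, EIF1AD, EIF5A2 and EIF4G3 joined the higher side and EIF3G the lower side, making 5 higher and 4 lower, where 8.16% and 10.2% of coding symbols were higher and lower by that measure. The values nearest the 2-fold line were 1.03 for EIF2B4 and -1.01 for EIF2D inside it, and 0.76 for EIF1AD outside it. The values nearest the 1.5-fold line were 0.59 for EIF4G3 inside it and 0.50 for EIF2B5 outside it. The median log2 ratio of the 51 was 0.15, with 33 above 0, against a median of -0.02 over all coding symbols compared, of which 47.9% lay above 0. The family summed to 4511 FPKM in MTAC-P, 0.658% of the listed total, and to 4319 FPKM in PC9, 0.623% of it.

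**Figure D1:**
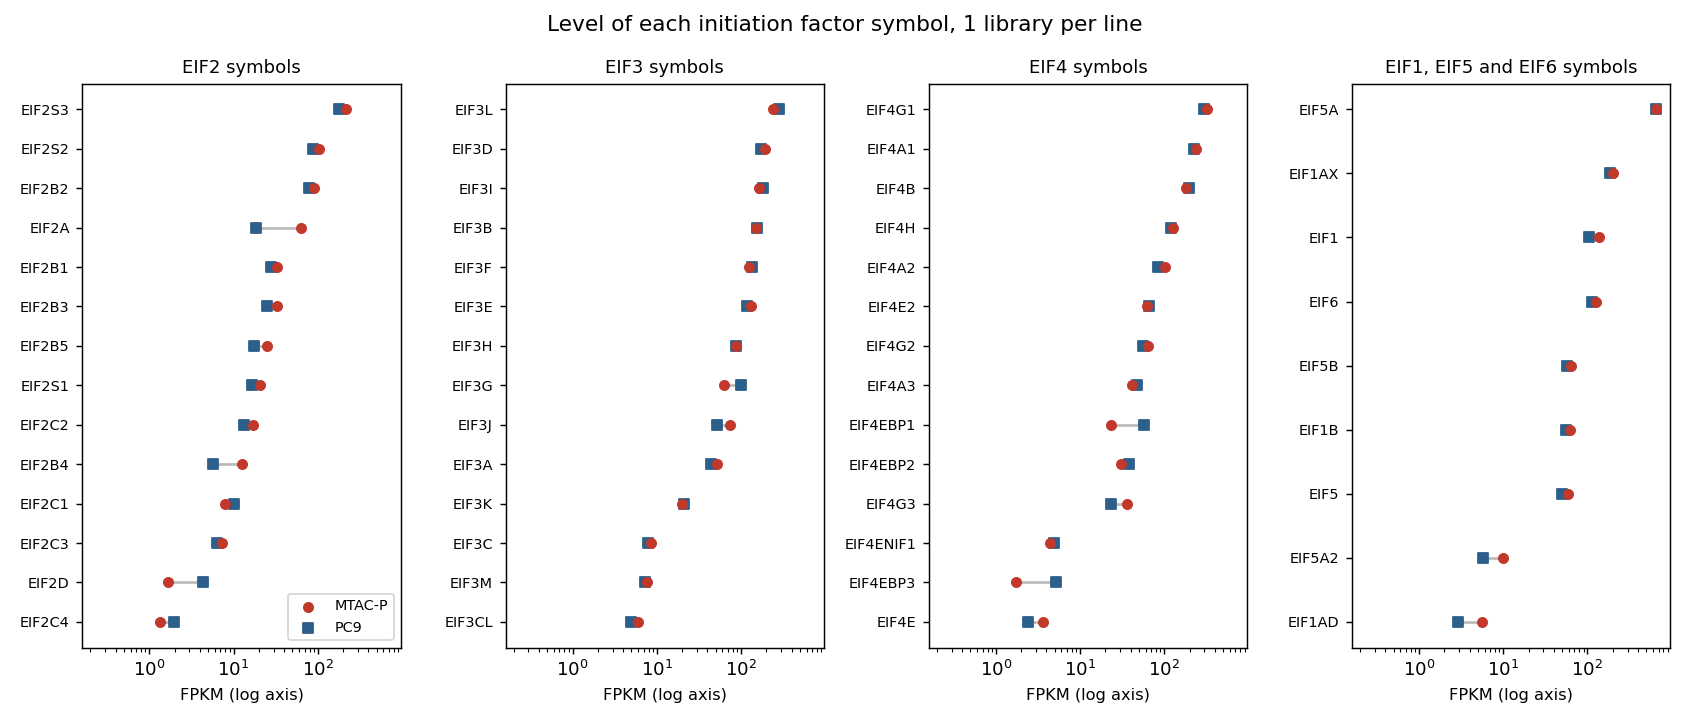
Level of each of the 51 compared symbols in FPKM on a log axis, with a red circle for MTAC-P and a blue square for PC9, 1 library each and no error bars. Most pairs of points touch, and the widest gaps are those of EIF2A, EIF2B4, EIF2D, EIF4EBP1 and EIF4EBP3.

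The groups by symbol differed in their medians. The 14 compared EIF2 symbols had a median log2 ratio of 0.26, with 11 above 0. The 14 EIF3 symbols had a median of 0.03, with 7 on each side of 0. The 14 EIF4 symbols had a median of -0.01, also with 7 on each side. The 9 EIF1, EIF5 and EIF6 symbols had a median of 0.18, with 8 above 0. The signs of the EIF3 and EIF4 medians changed under some settings (from -0.03 to 0.10 and from -0.29 to 0.07 over all of those tried), while those of the EIF2 symbols (0.17 to 0.28) and of the EIF1, EIF5 and EIF6 symbols (0.14 to 0.24) stayed positive. The ends -0.29 and 0.17 came from keeping only symbols with every coding transcript listed, which left few per group. They are the values of EIF4EBP2 and of EIF2C3, an Argonaute gene described below.

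**Figure D2:**
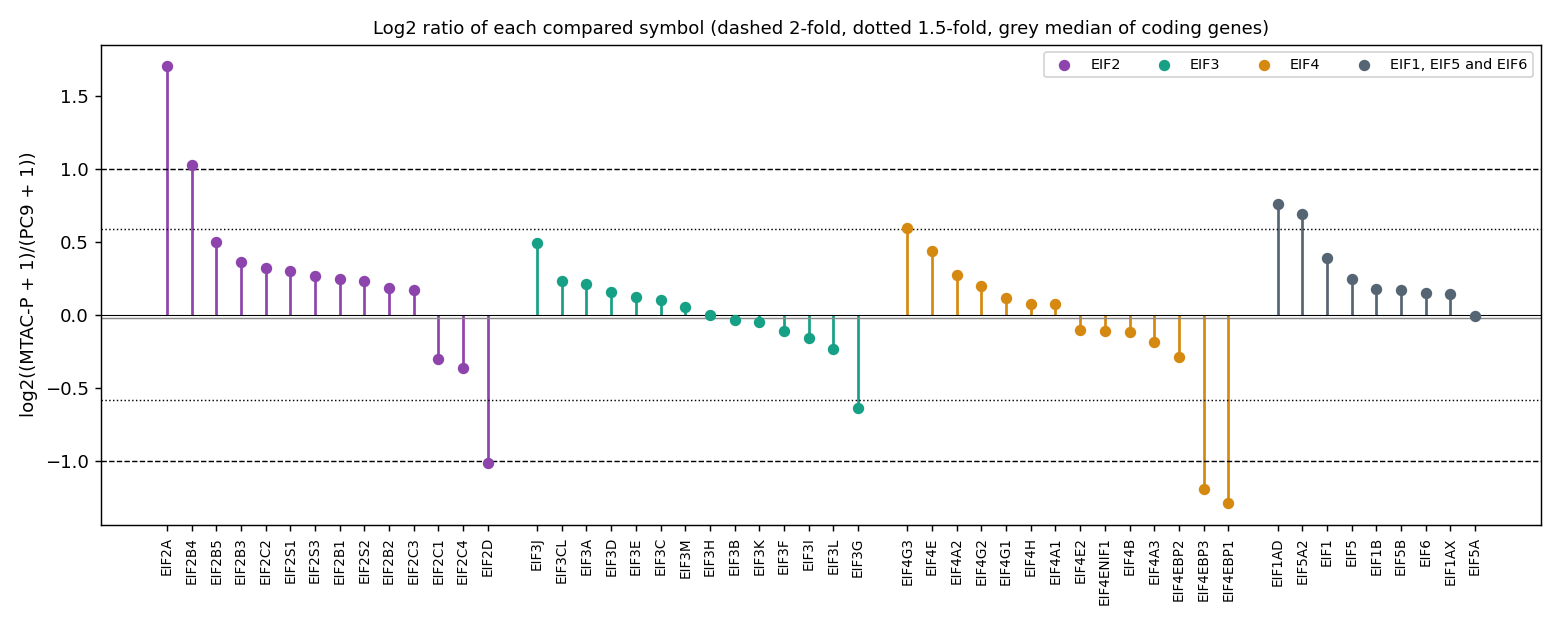
Log2 ratio of MTAC-P over PC9 for each compared symbol, in 4 groups and sorted within each; dashed lines mark 2-fold, dotted lines 1.5-fold and the grey line the median of all coding symbols compared, -0.02. EIF2 symbols lie mostly above 0, EIF3 symbols on both sides of it, and the lowest points are EIF4EBP1 and EIF4EBP3.

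Of the 4E-BP genes, inhibitors of cap-dependent initiation, EIF4EBP1 and EIF4EBP3 had the lowest log2 ratios of all 51 compared members, while EIF4EBP2 was within 1.5-fold. EIF4EBP1 (chromosome 8, 38030341 to 38060365, GRCh38) stood at 23.1 FPKM in MTAC-P and at 57.8 FPKM in PC9, a log2 ratio of -1.29. EIF4EBP3 (chromosome 5, 140547666 to 140549578) stood at 1.73 FPKM in MTAC-P and at 5.23 FPKM in PC9, a log2 ratio of -1.19. EIF4EBP2 (chromosome 10, 70404379 to 70428618) stood at 31.1 FPKM in MTAC-P and at 38.2 FPKM in PC9, a log2 ratio of -0.29. Together the 3 genes summed to 56.0 FPKM in MTAC-P and to 101 FPKM in PC9, a ratio of 0.553. The make-up of that sum differed as well. EIF4EBP1 supplied 41.3% of it in MTAC-P and 57.1% in PC9, so EIF4EBP2 was the most abundant of the 3 in MTAC-P and EIF4EBP1 in PC9. Each of these genes has 1 coding transcript in GENCODE release 29, and it was listed, so the values rest on no choice between transcripts. EIF4EBP1 stayed at least 2-fold lower under every alternative that gave it a value (-1.32 to -1.16). EIF4EBP3 is a low gene and stood at -0.60 with a pseudocount of 5. It lies within the read-through gene ANKHD1-EIF4EBP3 on the same strand and overlaps SRA1 on the other, and how reads were shared among them was not tested. The 10 nearest compared genes of EIF4EBP1 had a median log2 ratio of -0.03 and ranged from -0.74 to 0.23. Those of EIF4EBP3 had a median of -0.09 and ranged from -0.91 to 0.59.

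**Figure D3:**
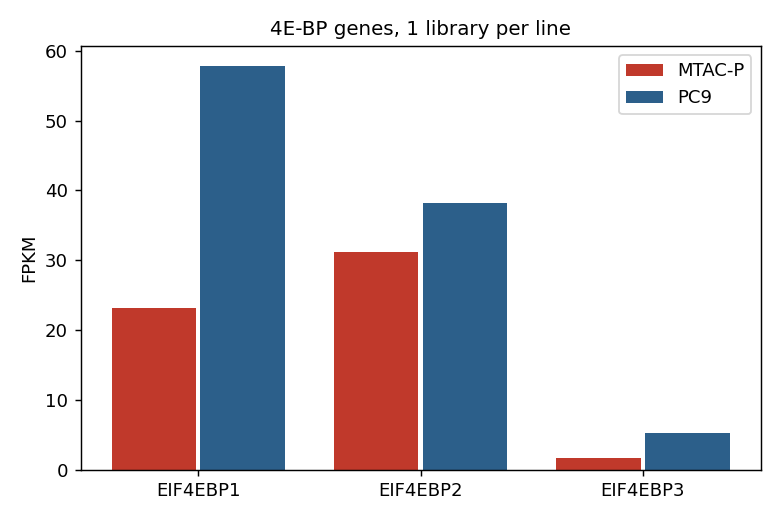
Level of the 3 genes of the 4E-BP family in FPKM, with a red bar for MTAC-P and a blue bar for PC9, 1 library each and no error bars. EIF4EBP1 is at 23.1 FPKM in MTAC-P against 57.8 FPKM in PC9, while EIF4EBP2 differs by less than 1.5-fold.

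4E-BP proteins and eIF4G compete for the same face of eIF4E through a short shared motif, a tyrosine followed after an interval by a leucine and a further hydrophobic residue. The coding stretch of that motif is shown for 2 of the inhibitors and 2 of the scaffolds because it is the feature through which they compete. EIF4EBP1, the inhibitor with the lowest log2 ratio, is not shown. Capitals mark the codons of the tyrosine, the leucine and the hydrophobic residue after it, in GENCODE release 29 transcripts on GRCh38, read 5′ to 3′ on the coding strand.
EIF4EBP2: TATgacagaaagtttCTGTTG
EIF4EBP3: TACgaccgaaagttcCTGCTG
EIF4G1: TACgaccgtgagttcCTGCTT
EIF4G3: TATgacagggagtttCTGCTG
The stretches lie in coding exons at chr10:70419928-70419948 (plus strand), chr5:140548920-140548940 (plus strand), chr3:184322859-184322879 (plus strand) and chr1:20895443-20895463 (minus strand), in the order printed. They encode residues 54 to 60 of 120 in EIF4EBP2, 40 to 46 of 100 in EIF4EBP3, 612 to 618 of 1599 in EIF4G1 and 624 to 630 of 1585 in EIF4G3. Each protein held 1 match to the motif.

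The eIF4G scaffolds, which link the cap complex to eIF3, were not lower in MTAC-P. EIF4G1, the main scaffold, stood at 322 FPKM in MTAC-P and at 296 FPKM in PC9 (log2 ratio 0.12). EIF4G2, which lacks the eIF4E-binding part and serves cap-independent initiation, stood at 64.7 FPKM in MTAC-P and at 56.3 FPKM in PC9 (0.20), with its principal transcript by the APPRIS annotation not listed. EIF4G3, a paralog of EIF4G1, stood at 36.2 FPKM in MTAC-P and at 23.6 FPKM in PC9 (0.59). Most of the EIF4G3 difference was in a processed transcript with no coding sequence in GENCODE, ENST00000435383, at 23.4 FPKM in MTAC-P and 11.1 FPKM in PC9. Its coding transcripts alone gave a log2 ratio of 0.14.

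The helicase genes and their cofactors stayed within 1.5-fold, where 18.3% of all coding symbols compared were past it. EIF4A1, the main helicase, stood at 237 FPKM in MTAC-P and at 225 FPKM in PC9 (0.07), and its paralog EIF4A2 at 103 FPKM in MTAC-P and at 84.98 FPKM in PC9 (0.27). For EIF4A2 the coding transcripts of GENCODE alone gave -0.04. EIF4A3, whose product belongs to the exon junction complex rather than to initiation, stood at 41.6 FPKM in MTAC-P and at 47.4 FPKM in PC9 (-0.18). The cofactors EIF4B (-0.12) and EIF4H (0.08) stood at 181 and 127 FPKM in MTAC-P and at 196 and 120 FPKM in PC9. The levels thus kept the order EIF4A1, EIF4B, EIF4H, EIF4A2, EIF4A3 in both lines. EIF4A1 has many processed copies in the genome, which can take or give reads.

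Of the cap-binding genes, EIF4E itself cannot be read from these tables with confidence. Its listed transcripts summed to 3.66 FPKM in MTAC-P and to 2.43 FPKM in PC9 (0.44), and its principal transcript was not among those listed. The listed coding transcript alone gave 0.73. EIF4E2, a paralog linked to repression of translation, stood at 62.1 FPKM in MTAC-P and at 66.7 FPKM in PC9 (-0.10). EIF4ENIF1, which carries eIF4E into the nucleus and to processing bodies, stood at 4.46 FPKM in MTAC-P and at 4.89 FPKM in PC9 (-0.11).

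The eIF2 complex was slightly higher in MTAC-P in all 3 compared subunits, where 47.9% of all coding symbols compared lay above 0. EIF2S1, the alpha subunit that the stress kinases phosphorylate, stood at 20.8 FPKM in MTAC-P and at 16.8 FPKM in PC9 (0.30). EIF2S2, the beta subunit, stood at 104 FPKM in MTAC-P and at 88.0 FPKM in PC9 (0.23). EIF2S3, the GTP-binding gamma subunit, stood at 218 FPKM in MTAC-P and at 181 FPKM in PC9 (0.27). The shift left the proportions nearly alike, with EIF2S3 at 10.5 times EIF2S1 in MTAC-P and at 10.8 times in PC9, and EIF2S3 at 2.10 times EIF2S2 in MTAC-P and at 2.05 times in PC9. The listing held 1 of 4 coding transcripts of EIF2S1, 1 of 1 of EIF2S2 and 2 of 2 of EIF2S3. The part of this in the proportions was not tested. None of the 3 reached 1.5-fold, where 18.3% of all coding symbols compared were past it.

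All 5 genes of eIF2B, the exchange factor, had a summed level above that of PC9 in MTAC-P, and only EIF2B4 was past 1.5-fold. Over all coding symbols compared, 47.9% lay above 0 and 18.3% were past 1.5-fold. EIF2B4, the delta subunit (chromosome 2, 27364352 to 27370486), stood at 12.6 FPKM in MTAC-P and at 5.64 FPKM in PC9, a log2 ratio of 1.03. EIF2B5, the catalytic epsilon subunit, stood at 24.95 FPKM in MTAC-P and at 17.3 FPKM in PC9 (0.50), and EIF2B3, the gamma subunit, at 32.6 FPKM in MTAC-P and at 25.2 FPKM in PC9 (0.36). EIF2B1, the alpha subunit, stood at 33.3 FPKM in MTAC-P and at 27.9 FPKM in PC9 (0.24), and EIF2B2, the beta subunit, at 89.98 FPKM in MTAC-P and at 78.9 FPKM in PC9 (0.19). The 5 summed to 193 FPKM in MTAC-P and to 155 FPKM in PC9.

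The EIF2B4 and EIF2B1 values depended on which transcripts were counted. For EIF2B4, transcripts that GENCODE types as targets of nonsense-mediated decay made up more than the coding one in MTAC-P. ENST00000417567 and ENST00000418146 stood at 3.45 and 2.47 FPKM in MTAC-P and were listed at 0 in PC9. A further decay target, ENST00000405940, went the other way, at 0.919 FPKM in MTAC-P and at 2.44 FPKM in PC9. The coding transcript ENST00000347454 stood at 5.71 FPKM in MTAC-P and at 3.20 FPKM in PC9. With coding transcripts alone the log2 ratio of EIF2B4 was 0.68, below 2-fold. The 10 compared genes nearest to EIF2B4 had a median of -0.15, with 3 above 0. For EIF2B1 the listed transcripts went in opposite directions, and how reads were shared between them was not tested. The principal transcript ENST00000424014 stood at 8.83 FPKM in MTAC-P and at 27.8 FPKM in PC9, whereas ENST00000228958, an ID that is not in GENCODE release 29, stood at 24.4 FPKM in MTAC-P and at 0.0928 FPKM in PC9. Counting the coding transcripts of GENCODE alone gave EIF2B1 a log2 ratio of -1.55, the opposite direction to its sum.

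EIF2A and EIF2D, which can deliver the initiator tRNA outside the eIF2 route, went in opposite directions. EIF2A (chromosome 3, 150546678 to 150584242) had the highest log2 ratio of the family, 1.70, from 63.0 FPKM in MTAC-P against 18.7 FPKM in PC9. EIF2D (chromosome 1, 206571292 to 206612463) stood at 1.66 FPKM in MTAC-P and at 4.37 FPKM in PC9 (-1.01). The EIF2A difference came from ENST00000383043, which is not in GENCODE release 29 and stood at 61.9 FPKM in MTAC-P and at 11.4 FPKM in PC9. Its coding transcript ENST00000273435 stood at 0.521 FPKM in MTAC-P and at 7.25 FPKM in PC9. With GENCODE coding transcripts alone the direction of EIF2A was reversed, to -1.99. The principal transcript of EIF2A was not among those listed, so neither value covers the gene. The EIF2D difference lay in ENST00000367114, at 0.102 FPKM in MTAC-P and at 2.34 FPKM in PC9, while its principal transcript ENST00000271764 stood at 1.56 FPKM in MTAC-P and at 2.02 FPKM in PC9. EIF2D dropped below 2-fold when only its most abundant transcript was counted (-0.24). EIF2A overlaps SERP1, and EIF2D overlaps RASSF5, each on the opposite strand, and whether the counting used strand is not stated, so reads of overlapping genes cannot be told apart. The 10 nearest compared genes had a median log2 ratio of -0.12 around EIF2A, and of 0.35 around EIF2D, with 9 above 0.

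**Figure D4:**
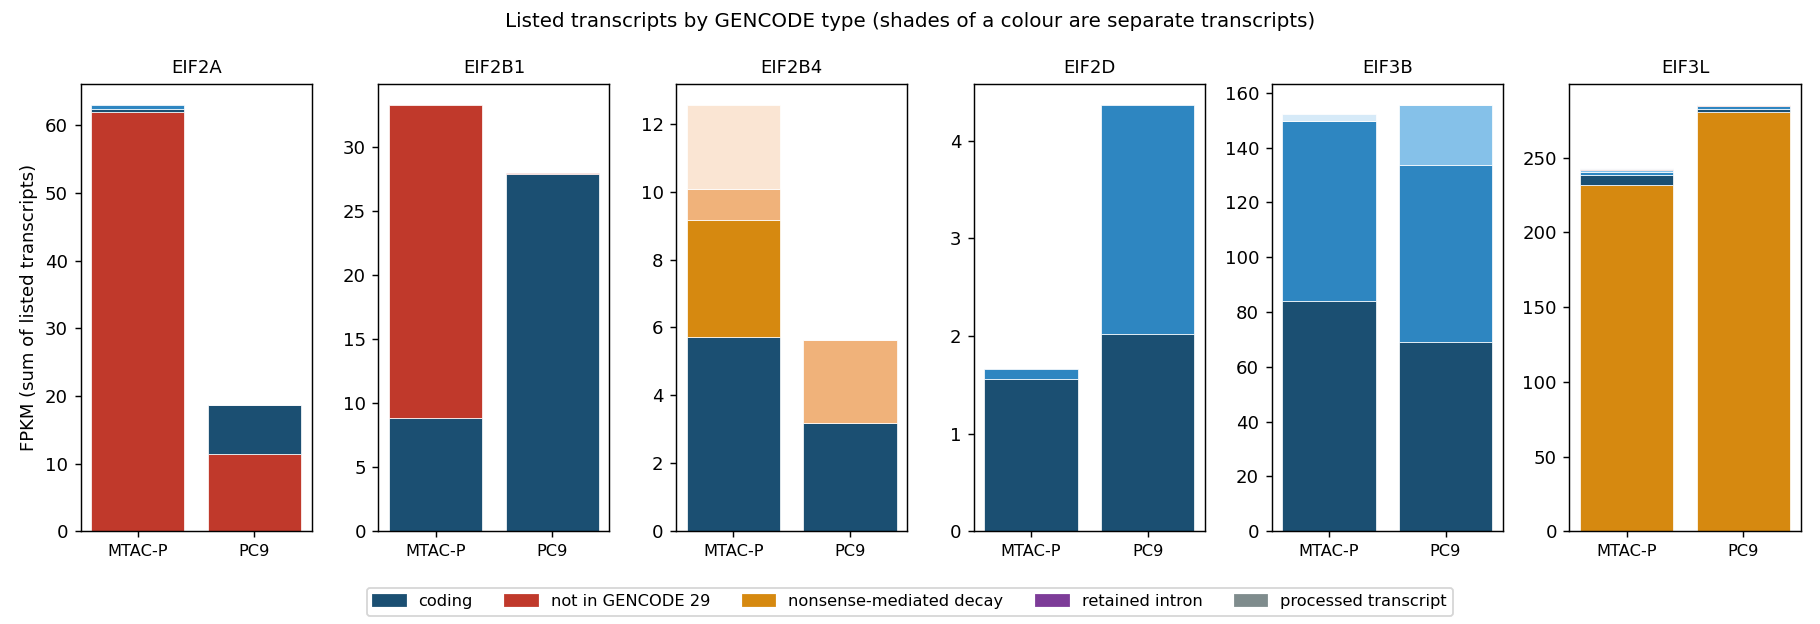
Stacked FPKM of the listed transcripts of 6 genes in MTAC-P (left bar) and PC9 (right bar), coloured by GENCODE release 29 type, with shades of a colour for separate transcripts. In EIF2A and EIF2B1 the MTAC-P bar is mostly a transcript that is not in that release, and EIF3L is nearly all a transcript typed as a decay target in both lines.

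EIF2C1 to EIF2C4 carry older symbols of the Argonaute genes AGO1 to AGO4, which act in small RNA silencing and are not initiation factors. They stood at 8.03, 17.1, 7.23 and 1.32 FPKM in MTAC-P and at 10.1, 13.5, 6.30 and 1.99 FPKM in PC9. Their log2 ratios lay between -0.36 and 0.32, so none reached 1.5-fold, where 18.3% of all coding symbols compared were past it. Without them the 10 remaining EIF2 symbols had a median of 0.28, and 9 of them lay above 0, where 47.9% of all coding symbols compared did.

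eIF3 genes stood on both sides of 0, and 13 of 14 were within 1.5-fold, where 18.3% of all coding symbols compared were past it. The exception was EIF3G, an RNA-binding subunit (chromosome 19, 10115017 to 10119918), which stood at 63.5 FPKM in MTAC-P and at 99.1 FPKM in PC9 (-0.63). The 10 compared genes nearest to EIF3G had a median log2 ratio of -0.26, with 3 above 0, and the 694 placed coding genes of chromosome 19 a median of -0.14. The part of this in the EIF3G value was not tested. EIF3J, a loosely bound subunit, was at the other end, at 73.3 FPKM in MTAC-P and at 51.8 FPKM in PC9 (0.49). Among the core scaffold genes, EIF3A stood at 51.9 FPKM in MTAC-P and at 44.6 FPKM in PC9 (0.21), and EIF3B at 152 FPKM in MTAC-P and at 156 FPKM in PC9 (-0.03). The cap-contacting subunit gene EIF3D stood at 194 FPKM in MTAC-P and at 174 FPKM in PC9 (0.16), mostly on transcripts with retained introns, and its coding transcripts alone gave -0.14. EIF3E (0.12), EIF3F (-0.11) and EIF3H (-0.00) stood at 130, 125 and 87.3 FPKM in MTAC-P and at 119, 135 and 87.4 FPKM in PC9. EIF3I (-0.16) and EIF3K (-0.05) stood at 163 and 20.1 FPKM in MTAC-P and at 182 and 20.8 FPKM in PC9. These subunits sit in 1 complex, yet the listed levels ran from 5.91 FPKM (EIF3CL) to 243 FPKM (EIF3L) in MTAC-P and from 4.88 FPKM to 285 FPKM in PC9 for the same genes. The sum over the 14 was 1325 FPKM in MTAC-P and 1375 FPKM in PC9.

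The transcripts listed differed between these genes, and their part in the spread of levels was not tested. EIF3M (0.06) stood at 7.60 FPKM in MTAC-P and at 7.27 FPKM in PC9 with its principal transcript not listed, as was also the case for EIF3H and for EIF3L, the highest of the 14. EIF3C (0.10) and EIF3CL (0.23) are near-identical copies, so their separate values are uncertain; they stood at 8.50 and 5.91 FPKM in MTAC-P and at 7.84 and 4.88 FPKM in PC9. EIF3L stood at 243 FPKM in MTAC-P and at 285 FPKM in PC9 (-0.23), but ENST00000436452, typed as a decay target, made up 232 FPKM of it in MTAC-P and 281 FPKM in PC9. The coding transcripts of EIF3L summed to 10.5 FPKM in MTAC-P and to 4.25 FPKM in PC9, a log2 ratio of 1.13 in the opposite direction. In EIF3B a coding transcript, ENST00000413917, stood at 0.00104 FPKM in MTAC-P and at 21.8 FPKM in PC9, while the sum hardly differed.

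Factors of start codon selection were all above 0 and within 1.5-fold. Over all coding symbols compared, 47.9% lay above 0 and 18.3% were past 1.5-fold. EIF1, which guards against wrong start codons, stood at 136 FPKM in MTAC-P and at 104 FPKM in PC9 (0.39), from a processed transcript only, since none of its 3 coding transcripts was listed. Its paralog EIF1B stood at 62.6 FPKM in MTAC-P and at 55.3 FPKM in PC9 (0.18), on its single coding transcript. EIF1AX, the X-linked eIF1A gene, stood at 203 FPKM in MTAC-P and at 184 FPKM in PC9 (0.14). Its pseudogene EIF1AXP1 was listed at 141 FPKM in MTAC-P and 150 FPKM in PC9, so reads may be split between the copies. EIF5, which triggers GTP hydrolysis on eIF2, stood at 59.0 FPKM in MTAC-P and at 49.7 FPKM in PC9 (0.24). EIF1AD, a nuclear protein with an eIF1A-like domain, was a low gene at 5.62 FPKM in MTAC-P and at 2.91 FPKM in PC9 (0.76), with 1 of 9 coding transcripts listed. It overlaps BANF1 on the opposite strand, which stood at 67.9 FPKM in MTAC-P and at 75.9 FPKM in PC9. How reads were shared between EIF1AD and BANF1 was not tested.

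At the last steps of initiation, EIF5B, the GTPase of subunit joining, stood at 64.4 FPKM in MTAC-P and at 57.1 FPKM in PC9 (0.17). EIF6, which keeps large subunits from joining too early, stood at 125 FPKM in MTAC-P and at 112 FPKM in PC9 (0.15). Of these, 91.4 FPKM in MTAC-P and 86.1 FPKM in PC9 came from ENST00000415116, typed as a decay target. EIF5A, which helps the ribosome past difficult stretches and at termination, was the most abundant member in both lines, at 648 FPKM in MTAC-P and at 652 FPKM in PC9 (-0.01). Its paralog EIF5A2 (chromosome 3, 170888415 to 170908693), linked to tumour spread, stood at 9.99 FPKM in MTAC-P and at 5.81 FPKM in PC9 (0.69), on 1 of 4 coding transcripts. EIF5A was thus 64.8 times EIF5A2 in MTAC-P and 112 times in PC9. Both proteins work only once a lysine is turned into hypusine, and that site is printed because it is shared by the steady and the differing paralog. Capitals mark the codon of the modified lysine, residue 50 in both proteins.
EIF5A: actggcAAGcacggc
EIF5A2: actggaAAGcatggt
The stretches lie in coding exons at chr17:7309777-7309791 (plus strand) and chr3:170907651-170907665 (minus strand) of GRCh38. The enzymes that make hypusine, DHPS and DOHH, named here after their values were seen, stood at 43.9 and 5.21 FPKM in MTAC-P and at 44.0 and 6.95 FPKM in PC9 (log2 ratios -0.00 and -0.36).

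Across the family, the sums covered unlike shares of each gene. All GENCODE coding transcripts were listed for 15 of 54 symbols, and the principal transcript for 46. Transcripts of the 54 symbols that GENCODE types as coding made up 79.0% of the family's FPKM in MTAC-P and 81.1% in PC9. Those typed as decay targets made up 11.1% in MTAC-P and 12.1% in PC9, and IDs not in that release 2.38% in MTAC-P and 0.590% in PC9. Of 112 transcripts with a mean of at least 1 FPKM, 10 were higher in MTAC-P by 2-fold or more and 12 were lower by as much, where 15.9% of 18306 transcripts of coding genes were past 2-fold in either direction. EIF2A, EIF2B1, EIF3B and EIF4G1 held transcripts past 2-fold in both directions. Over the 15 symbols with every coding transcript listed, the median log2 ratio was -0.03, 7 lay above 0, and the 2 past 2-fold were EIF4EBP1 and EIF4EBP3.

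**Figure D5:**
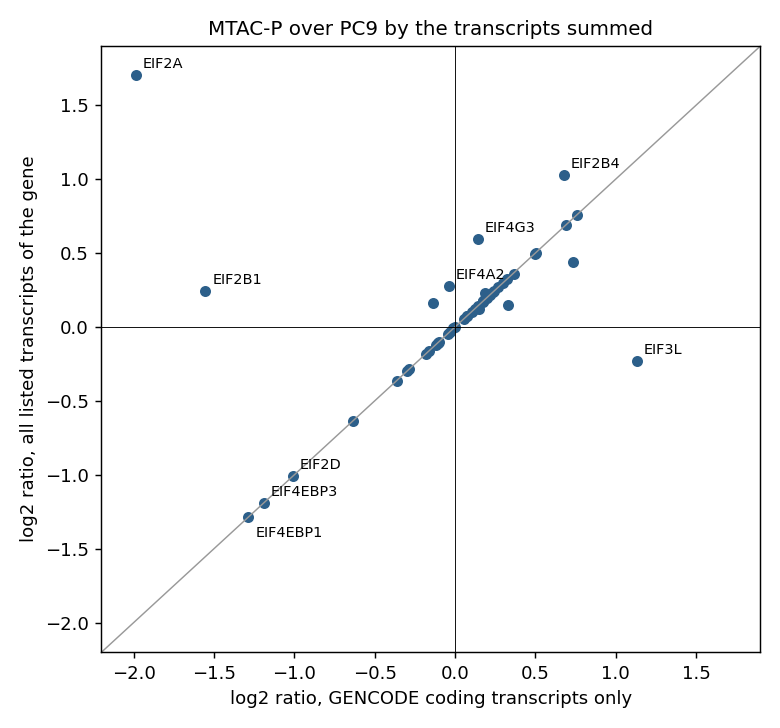
Log2 ratio of MTAC-P over PC9 from all listed transcripts of a symbol (vertical axis) against that from its GENCODE coding transcripts alone (horizontal axis), for compared symbols whose coding transcripts had a mean of at least 1 FPKM; the grey line marks equal values. Most points lie on the line, and EIF2A, EIF2B1 and EIF3L lie far into the quadrants of opposite sign, with EIF4A2 and EIF3D just inside them.

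Many mRNAs of the translation machinery begin with a C followed by a run of pyrimidines, the 5′ terminal oligopyrimidine tract, through which mTOR and LARP1 control their translation. Starts of the members were read from the RefSeq promoter table (GRCh38.p14), which held 45 of the 54 symbols, counting the Argonaute genes and EIF2S3L under their current symbols. A tract was counted where a start had C followed at once by at least 4 bases that are C or T, on the coding strand. It was found in 10 of the 45 (22.2%), against 5.14% of 27305 genes in the table and 7.59% of the 7919 compared coding symbols with an entry. The 10 include EIF2S3L, which was not compared. The windows run from 15 bases before to 15 bases from the annotated start, and capitals mark the tract.
EIF2A: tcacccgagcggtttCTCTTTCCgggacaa
EIF2D: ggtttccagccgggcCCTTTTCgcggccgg
EIF2S3: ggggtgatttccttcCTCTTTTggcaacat
EIF3D: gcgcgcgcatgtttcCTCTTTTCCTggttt
EIF3F: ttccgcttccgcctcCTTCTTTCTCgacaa
EIF3K: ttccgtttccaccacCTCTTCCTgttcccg
EIF3M: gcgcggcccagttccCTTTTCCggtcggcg
EIF4A2: gttgggcgccgctgtCTTTTCagtcgggcg
EIF4B: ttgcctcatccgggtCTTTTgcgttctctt
In the order printed they lie at chr3:150546772-150546801 (plus), chr1:206612451-206612480 (minus), chrX:24054941-24054970 (plus), chr22:36529152-36529181 (minus), chr11:7987322-7987351 (plus), chr19:38619173-38619202 (plus), chr11:32583816-32583845 (plus), chr3:186783562-186783591 (plus) and chr12:53006441-53006470 (plus). The 9 compared symbols with a tract had a median log2 ratio of 0.06, with 5 above 0, and ranged from -1.01 (EIF2D) to 1.70 (EIF2A). The 33 compared symbols with an entry and no tract had a median of 0.17, with 23 above 0. Members with a tract lay on both sides of 0, and some hardly differed. The ends of that range depend on the transcripts counted. EIF2A was at -1.99 with GENCODE coding transcripts alone, and EIF2D at -0.24 with its most abundant transcript. Whether the tract bears on these levels was not tested, and translation was not measured.

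Genes around the initiation step were read from 5 lists chosen with earlier results of these data known, and none of their compared genes reached 2-fold. Over all coding symbols compared, 6.37% were past 2-fold and 47.9% lay above 0. At 1.5-fold, 8.16% of them were higher and 10.2% lower. The 2 most abundant compared genes of each list are given, and any other was named after its values were seen. Of the 4 eIF2 kinases, EIF2AK2, the kinase PKR that senses double-stranded RNA, was at least 1.5-fold higher, at 79.7 FPKM in MTAC-P and at 51.9 FPKM in PC9 (0.61). EIF2AK1 was the most abundant of them, at 119 FPKM in MTAC-P and at 141 FPKM in PC9 (-0.24). Of 9 compared genes of the integrated stress response, which eIF2 phosphorylation sets off, 7 were above 0 and none reached 1.5-fold (median 0.29). The transcription factor ATF4 stood at 511 FPKM in MTAC-P and at 372 FPKM in PC9 (0.45), and ATF5, a related factor, at 61.4 FPKM in MTAC-P and at 57.8 FPKM in PC9 (0.09). Of 16 compared genes of mTOR and cap control, 2 were at least 1.5-fold lower and none higher (median -0.08). These were RPTOR, the scaffold of mTOR complex 1, at 3.001 FPKM in MTAC-P and at 5.66 FPKM in PC9 (-0.73), and RPS6KA1, an ERK-activated kinase, at 8.02 FPKM in MTAC-P and at 14.6 FPKM in PC9 (-0.79). The most abundant were RPS6, a ribosomal protein that S6 kinase modifies, at 1592 FPKM in MTAC-P and 1458 FPKM in PC9 (0.13), and AKT1S1, an inhibitor in mTOR complex 1, at 86.7 FPKM in MTAC-P and 93.7 FPKM in PC9 (-0.11). In that list 6 of 16 lay above 0, the highest being MKNK2, at 13.3 FPKM in MTAC-P and 8.65 FPKM in PC9 (0.57). Poly(A)-binding and helper factors had none of 18 at 1.5-fold (median 0.13). PABPC1 was not among the 18, at 0.191 FPKM in MTAC-P and 0.0267 FPKM in PC9. Which of its transcripts were listed was not checked, so these values may not cover the gene. BZW1, an eIF5 mimic, stood at 983 FPKM in MTAC-P and 808 FPKM in PC9 (0.28), and MCTS1, which acts with DENR in reinitiation, at 169 FPKM in MTAC-P and at 169.5 FPKM in PC9. Of 10 elongation and release factors (median 0.06), EEF1A2 was at least 1.5-fold lower, at 296 FPKM in MTAC-P and at 527 FPKM in PC9 (-0.83), while EEF1A1, its ubiquitous paralog, stood at 6131 FPKM in MTAC-P and at 5910.2 FPKM in PC9 (0.05), and EEF1G at 1178 FPKM in MTAC-P and at 1121 FPKM in PC9 (0.07).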

How the data were processed

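The authors deposited 1 value per transcript for each line. No unit is written in the tables. The deposited values were taken as FPKM, since the authors used Cufflinks, per the submitters' processing notes, which also name Trim Galore, TopHat and hg38, without versions. Triplicates are mentioned in the series text, whereas 1 column per line was deposited, and whether it pools them is not stated. Each table has 65536 lines with its header, and its transcript IDs end at number 437205, so later transcripts were not analysed here. The biotype in the tables is that of the gene.

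Values of protein-coding rows were summed per symbol (Python 3.11.15, pandas 2.3.3). Symbols with a mean of at least 1 FPKM were compared by log2((MTAC-P + 1)/(PC9 + 1)). Transcript types, principal transcripts and coordinates came from GENCODE release 29 (GRCh38), which held 141 of the 152 transcripts, and start windows from RefSeq (GRCh38.p14). Depth is unknown, so no interval is given. Every compared member could be named, and of the other lists the genes at 2-fold or more, or else the 2 most abundant. The members and lists were chosen with earlier results of these data known. The fold calculation was run on simulated data with set changes and no noise, which checks the code and not the results. The 14 alternatives changed the pseudocount, filter, scaling, rows summed or members counted.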

Additional observations from a re-analysis of the deposited data

How the results depend on the processing

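Of 655 gene values under 14 alternatives, 642 kept their side of 2-fold. Settings that change only the filter or the members counted cannot alter a gene's ratio, so their agreement was fixed in advance. Summing rows of every biotype also left the member ratios as reported. The 642 is therefore no measure of how stable the values are. Of the alternatives, GENCODE coding transcripts only, no Argonaute genes, principal transcript listed and every coding transcript listed were chosen after seeing the data. The number past 2-fold, 5 in the values reported, became 2 (1 higher, 1 lower) with a pseudocount of 5, 3 (1 lower) at a mean of at least 5, and 2 (0 higher) with every coding transcript listed. The number higher, 2 as reported, became 1 with equal upper quartiles, with GENCODE coding transcripts only (5 lower) and with the principal transcript listed. The number past 1.5-fold, 9 as reported, became 5 (2 higher) with a pseudocount of 5 and 2 (0 higher, 2 lower) with every coding transcript listed, and 2 were lower at a mean of at least 5. The settings on the mean and on listed transcripts compare fewer genes. With every coding transcript listed the median log2 ratio of members was -0.032 and that of EIF4 symbols -0.29. No other group median moved by more than 0.1. The EIF4 symbols left with every coding transcript listed were EIF4EBP1, EIF4EBP2, EIF4EBP3, EIF4ENIF1 and EIF4H. Their median of -0.29 is thus the value of EIF4EBP2 and rests mostly on the 4E-BP genes. EIF2A was reversed to -1.99 with GENCODE coding transcripts only, which leaves out the transcript that carried its difference. EIF3L went to 1.13 in that setting. EIF2B1 went to -1.55 both there and with the most abundant transcript, an alternative from the first plan, under which EIF4G3 went to 1.01. EIF2B4 was below 2-fold with a pseudocount of 5 (0.72), equal upper quartiles (0.998), the most abundant transcript (0.68) or coding transcripts only. EIF4EBP3 (-0.60) and EIF2D were below it with a pseudocount of 5 (-0.49 for EIF2D), and EIF2D also with centring (-0.99) or the most abundant transcript (-0.24). The shifts with GENCODE coding transcripts only or with the most abundant transcript follow from the transcripts left out. The other shifts also follow from the settings. A pseudocount of 5 shrinks ratios, most of all in low genes. Centring and equal upper quartiles move all genes together, so values near the 2-fold line cross it. The settings on the mean and on listed transcripts only drop genes. No paired analysis was possible because there is a single library for MTAC-P and a single one for PC9, which also leaves no replicate to omit.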

Other observations

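Members on chromosome 3 lay on the same side. The 6 compared there (EIF1B, EIF2A, EIF2B5, EIF4A2, EIF4G1 and EIF5A2) were all above 0, with a median log2 ratio of 0.39, where the 560 placed coding genes of that chromosome had a median of -0.01. The 10 nearest compared genes of EIF2A had a median of -0.12, and those of EIF5A2 a median of -0.05. With GENCODE coding transcripts alone, EIF2A and EIF4A2 were below 0 (-1.99 and -0.04). Of 7 members on chromosome 1, 3 were above 0 and their median was -0.16, against 0.17 over its 1065 placed genes.

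The E-box CACGTG, a palindrome that MYC and the TFE family bind, was searched in the RefSeq windows from 250 bases before to 50 after a start. It was present for 11 of 45 members (24.4%), against 8.77% of all genes in the table and 12.9% of compared coding symbols with an entry. The 11 had a median log2 ratio of 0.08, with 6 above 0, and the 31 compared members without it a median of 0.17, with 22 above 0. EIF4EBP3 is among the members with it, and its start window is shown with the E-box in capitals, at chr5:140547647-140547676 (plus).
EIF4EBP3: tgCACGTGgtcggctgagtccgcctcagac
A match is a description of these letters and not of a bound site.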
